A study of Mus musculus with 10 samples.

Results

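Ribosome biogenesis factors and the RNA polymerase I machinery were followed in mouse kidney after ischaemia-reperfusion injury (IRI). The set holds 45 genes chosen by symbol from the nucleolar pathway, and all 45 were found among the 55359 genes of the deposited table. The choice was made with earlier results of these data known, so shares set beside those of all tested genes are descriptions. In the IRI group, 5 libraries came from kidneys of male mice after ischaemia of 30 min followed by 24 h of reperfusion. In the sham group, 5 libraries came from kidneys of mice given sham surgery, whose sex the series text does not state separately. The interval after sham surgery, and the strain, age and diet of the mice, were not given in the sources used here. The labels do not state that each library came from a separate mouse, so the p-values speak for the spread among these 10 libraries.

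Ribosomes are assembled in the nucleolus. RNA polymerase I (Pol I) transcribes the ribosomal DNA into a long precursor, which small nucleolar ribonucleoproteins (snoRNPs) modify and which assembly factors fold, cleave and pack with ribosomal proteins into the 40S and 60S subunits. The proteins of this pathway are known as growth-regulated genes in many tissues, and Myc is a known activator of many of them. The reads came from poly(A)-selected RNA, so the transcripts of the protein-coding genes were measured and the ribosomal RNA itself was not.

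Library totals ran from 13147899 to 17307039 counts in IRI and from 13199234 to 18603272 counts in sham, and each member had between 115 and 10899 counts in each library. All 6 proximal tubule markers and all 6 markers of the loop of Henle and distal nephron passed the filter on low values (at least 1 FPKM in 5 libraries), in tissue labelled kidney. IRI replicate 1 stood apart from the other IRI libraries on the second principal component, at 47.6 against -18.6 to 6.13. It also held the highest IRI value of 20 of the 45 members, so the counts of called members and some fold changes are also given without it. Fold changes were scaled by TMM factors, which averaged 1.09 in IRI and 0.916 in sham. FPKM (counts scaled to exonic length and to the library total) is scaled by library totals. On that scale the median log2 fold change of all tested genes lies 0.25 higher.

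Ribosome biogenesis genes were higher after IRI in most cases, by moderate amounts. All 45 members passed the filter. Of these, 36 rose (80.0%), 3 fell and 6 were not called, at an adjusted p under 0.05 by edgeR's quasi-likelihood test. Over all 13324 tested genes, 34.5% were called higher and 32.4% lower, 66.9% in all. The members' median log2 fold change was 0.69, with quartiles of 0.38 and 0.84, against 0.05 for all tested genes, whose quartiles were -0.58 and 0.54. In 39 of 45 members (86.7%) every IRI value lay above every sham value in FPKM, which was the case for 36.7% of all tested genes. Rises of at least 2-fold were called in 7 of 45 members (15.6%), near the background of 11.9%. Members together took 0.318% ± 0.0116 of the counts in IRI and 0.173% ± 0.00433 in sham (SD, n = 5 each). In bulk tissue, more transcript per cell and a changed mix of cells cannot be told apart.

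With library totals in place of TMM factors, 42 members were called higher and 0 lower, beside 6311 higher and 3149 lower over all tested genes, against 4599 and 4320 with TMM. By edgeR with library totals 0 members were lower at an unadjusted p under 0.05, and DESeq2 called 3 lower. Without IRI replicate 1, 36 members were higher and 2 lower, with a median of 0.63. Members highest in that library included Ddx21, Gnl3, Heatr1, Utp4, Ftsj3 and Nop2. When each of the 10 libraries was left out in turn, their lowest log2 fold changes were 1.20, 1.21, 0.65, 0.65, 0.54 and 0.39. All of them stayed called higher.

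**Figure D1:**
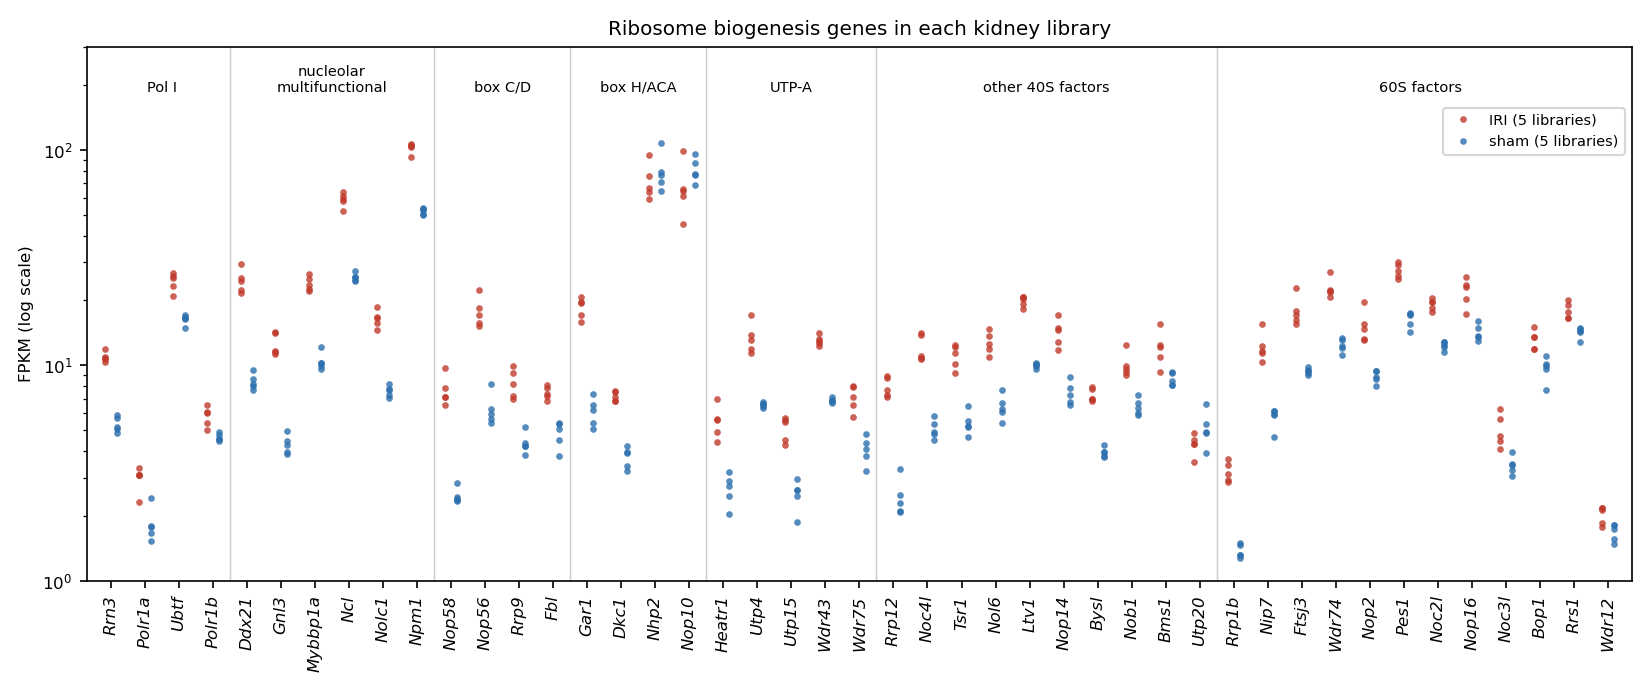
FPKM of the 45 members (log scale) in each of the 5 IRI libraries (red, left of each gene's tick) and 5 sham libraries (blue, right), grouped by role and ordered within a group by log2 fold change. The red points lie above all blue points in 39 genes, and the groups overlap in Polr1a, Nhp2, Nop10, Utp20, Bms1 and Wdr12.

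Pol I transcription was represented by the subunits Polr1a and Polr1b, by Rrn3, the initiation factor TIF-IA that makes Pol I competent to start, and by Ubtf, which binds and keeps open the ribosomal DNA. Of these 4 genes 3 rose and Polr1b was not called. Their median log2 fold change was 0.39. Rrn3 measured 10.96, 10.7, 10.3, 10.8 and 11.96 FPKM in IRI replicates 1 to 5, against 5.86, 5.04, 5.71, 5.16 and 4.86 FPKM in sham replicates 1 to 5. Its groups were far apart, with a log2 fold change of 0.79 ± 0.08, adjusted p = 5.70e-06. Polr1b, the second-largest subunit, measured 6.05, 6.51, 6.02, 5.01 and 5.41 FPKM in IRI replicates 1 to 5, against 4.44, 4.75, 4.89, 4.54 and 4.56 FPKM in sham replicates 1 to 5. Its IRI values all lay above the sham values in FPKM, but the log2 fold change with TMM factors was 0.08 ± 0.10, adjusted p = 0.516. It was called higher with library totals (0.32, adjusted p = 0.00673). Polr1a, the catalytic subunit, measured 3.1, 2.31, 3.1, 3.11 and 3.33 FPKM in IRI replicates 1 to 5, against 1.79, 1.78, 2.43, 1.67 and 1.53 FPKM in sham replicates 1 to 5. IRI replicate 2 lay within the sham range, and sham replicate 3 was the highest sham library, with a log2 fold change of 0.45 ± 0.14, adjusted p = 0.0105. Ubtf measured 20.96 to 26.7 FPKM in IRI and 14.8 to 17.03 FPKM in sham, a log2 fold change of 0.33 ± 0.08, adjusted p = 0.00344.

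The promoter of Rrn3 is shown because it holds more copies of the E-box, the letters CACGTG to which Myc and related factors bind, than any other member's promoter window searched. The window runs from 250 bases before to 50 bases after the RefSeq start site (build GRCm38.p6, chr16:13780449-13780748, plus strand). Capitals mark the E-box and the ETS motif CCGGAAG, read on either strand, with the E-boxes beginning 215 and 48 bases before the start site and the ETS motifs, here as the reverse complement, 5 bases before and 18 bases after it.
Rrn3: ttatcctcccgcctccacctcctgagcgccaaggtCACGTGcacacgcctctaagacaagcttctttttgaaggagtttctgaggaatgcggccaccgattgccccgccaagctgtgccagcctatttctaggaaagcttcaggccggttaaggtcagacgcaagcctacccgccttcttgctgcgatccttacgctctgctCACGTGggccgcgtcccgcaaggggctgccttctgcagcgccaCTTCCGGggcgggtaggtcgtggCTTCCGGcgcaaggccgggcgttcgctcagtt

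Promoter windows were found for 39 of the 45 members, all but Npm1, Fbl, Nol6, Rrp12, Bop1 and Rrs1. An E-box was present in 9 of them (23.1%), against 11.9% of 9603 tested genes with a window and 8.09% of 27025 genes in all. The ETS motif was present in 14 (35.9%), against 19.9% of tested genes and 9.93% of all, and the NRF1 half-site GCGCATG in 4 (10.3%), against 7.66% and 4.41%. Median GC content was 59.8% over the members' windows and 60.7% over those of tested genes. Of the 9 members with an E-box, 8 rose and Utp20 fell (median log2 fold change 0.74). The 30 members with a window and no E-box had 24 higher, 2 lower and 4 not called (median 0.69). Of the 14 members with an ETS motif, 11 rose, 1 fell and 2 were not called (median 0.76). The 25 with a window and no ETS motif had 21 higher, 2 lower and 2 not called (median 0.68). A match describes letters in a window and no binding was measured here.

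Nucleolar proteins with several tasks all rose. These 6 genes had a median log2 fold change of 0.94 and no overlap between groups in FPKM. Of all tested genes, 36.7% had every IRI value above every sham value. Ddx21, an RNA helicase that links Pol I and snoRNA work, had the largest change of the group. It measured 29.4, 24.7, 21.8, 22.3 and 25.5 FPKM in IRI replicates 1 to 5, against 8.64, 8.22, 9.47, 7.71 and 8.01 FPKM in sham replicates 1 to 5, a log2 fold change of 1.31 ± 0.11, adjusted p = 1.46e-06. Gnl3, which encodes nucleostemin, a nucleolar GTPase abundant in stem and tumour cells, measured 14.3, 14.1, 11.6, 11.6 and 11.2 FPKM in IRI replicates 1 to 5, against 3.94, 4.45, 4.95, 3.87 and 4.25 FPKM in sham replicates 1 to 5. Its log2 fold change of 1.30 ± 0.12, adjusted p = 1.94e-06 was close to that of Ddx21. Npm1, the abundant nucleolar chaperone nucleophosmin, had the smallest change of the group and the highest mean FPKM of all members in IRI. It measured 92.5, 103, 105, 104 and 107 FPKM in IRI replicates 1 to 5, against 52.8, 49.7, 53.4, 50.4 and 53.7 FPKM in sham replicates 1 to 5, a log2 fold change of 0.72 ± 0.07, adjusted p = 3.22e-06. IRI replicate 1 was the lowest of the IRI libraries here, the opposite of its place for Ddx21 and Gnl3. The chaperone nucleolin, Ncl, measured 51.8 to 63.5 FPKM in IRI and 24.7 to 27.5 FPKM in sham (log2 fold change 0.94 ± 0.08), the snoRNP chaperone Nolc1 14.5 to 18.6 FPKM in IRI and 7.06 to 8.2 FPKM in sham (0.87 ± 0.10), and the ribosomal DNA-associated Mybbp1a 22.1 to 26.4 FPKM in IRI and 9.61 to 12.2 FPKM in sham (0.95 ± 0.09). Reads shared with processed pseudogenes of Npm1 could not be separated, since how such reads were counted is not stated in the sources used.

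Box C/D snoRNPs guide 2′-O-methylation of the precursor. Fbl encodes the methyltransferase fibrillarin, Nop56 and Nop58 its paired scaffold proteins, and Rrp9 a protein particular to the U3 snoRNP, which guides cleavage. All 4 rose, with a median of 0.97, but by unequal amounts. Nop58 measured 9.76, 7.12, 6.53, 7.15 and 7.85 FPKM in IRI replicates 1 to 5, against 2.45, 2.37, 2.84, 2.35 and 2.4 FPKM in sham replicates 1 to 5. Every IRI library held more than double the highest sham value, and the log2 fold change was 1.39 ± 0.13, adjusted p = 2.66e-06. Nop56 measured 22.4, 17.1, 15.8, 15.2 and 18.4 FPKM in IRI replicates 1 to 5, against 5.65, 6.27, 5.38, 5.93 and 8.2 FPKM in sham replicates 1 to 5, a log2 fold change of 1.26 ± 0.16, adjusted p = 2.06e-05. IRI replicate 1 was the highest library for both scaffold genes, and without it the log2 values were 1.24 for Nop58 and 1.12 for Nop56. Fbl measured 8.11, 6.81, 7.33, 7.23 and 7.82 FPKM in IRI replicates 1 to 5, against 5.4, 5.36, 5.05, 4.5 and 3.81 FPKM in sham replicates 1 to 5. The groups were separated by a smaller gap, and the log2 fold change was 0.38 ± 0.12, adjusted p = 0.0132. Rrp9 measured 7 to 9.89 FPKM in IRI and 3.84 to 5.18 FPKM in sham, with a log2 fold change of 0.68 ± 0.14, adjusted p = 0.00102.

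Box H/ACA snoRNPs guide pseudouridylation, and the same 4 proteins are part of telomerase. Dkc1 encodes the pseudouridine synthase dyskerin, and Gar1, Nhp2 and Nop10 its small partners. These genes did not move together: Gar1 and Dkc1 rose, while Nhp2 and Nop10 fell with TMM factors and were not called with library totals. Gar1 measured 19.6, 20.8, 15.9, 17.1 and 19.6 FPKM in IRI replicates 1 to 5, against 7.38, 6.21, 6.54, 5.08 and 5.38 FPKM in sham replicates 1 to 5. Its lowest IRI value was more than double its highest sham value, and its log2 fold change was 1.35 ± 0.13, adjusted p = 2.97e-06. Dkc1 measured 6.79 to 7.59 FPKM in IRI and 3.22 to 4.2 FPKM in sham, with a log2 fold change of 0.69 ± 0.10, adjusted p = 7.20e-05. Nop10 measured 45.5, 64.3, 99.2, 65.8 and 60.8 FPKM in IRI replicates 1 to 5, against 76.9, 76.8, 68.8, 86.6 and 95.5 FPKM in sham replicates 1 to 5. The groups overlapped through IRI replicate 3, the highest of the 10 libraries, while the other 4 IRI libraries lay below all sham libraries. The log2 fold change was -0.53 ± 0.17, adjusted p = 0.0145, or -0.27 with library totals (adjusted p = 0.181). Nhp2 measured 59.2, 75.2, 94.2, 66.2 and 63.8 FPKM in IRI replicates 1 to 5, against 79.3, 64.7, 70.7, 76.2 and 108 FPKM in sham replicates 1 to 5. Its groups overlapped, and the log2 fold change was -0.41 ± 0.15, adjusted p = 0.0328. That call was lost with library totals (-0.15) and when IRI replicate 1, 4 or 5 or sham replicate 1, 4 or 5 was left out.

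A ratio of 2 members in the same library does not depend on the scaling between libraries. Within the box H/ACA and box C/D lists, 12 such ratios of FPKM were compared between groups by exact permutation of the 10 libraries (two-sided), whose smallest p is 0.00794. This comparison was chosen after the values were seen. The log2 ratio of Nop10 over Gar1 was 1.81 ± 0.53 in IRI and 3.73 ± 0.37 in sham (SD, n = 5 each), a difference of -1.92 (adjusted exact permutation p = 0.0119). The log2 ratio of Nhp2 over Gar1 differed by -1.76, that of Dkc1 over Nop10 by 1.25 and that of Dkc1 over Nhp2 by 1.10, with the groups apart in each (adjusted exact permutation p = 0.0119). Dkc1 over Gar1 differed by -0.66 with the same p. Nhp2 over Nop10 differed by 0.16, which did not pass (adjusted exact permutation p = 0.216). In the box C/D list, Nop58 over Fbl differed by 0.98, Nop58 over Rrp9 by 0.70 and Nop56 over Rrp9 by 0.58 (adjusted exact permutation p = 0.0119 for each). Nop56 over Fbl differed by 0.86 (adjusted exact permutation p = 0.0317), with overlapping groups, and this call was lost in 7 of the 10 fits that left out a library. The scaffold pair Nop56 over Nop58 (-0.12, adjusted exact permutation p = 0.484) and Fbl over Rrp9 (-0.29, adjusted exact permutation p = 0.152) did not pass.

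**Figure D2:**
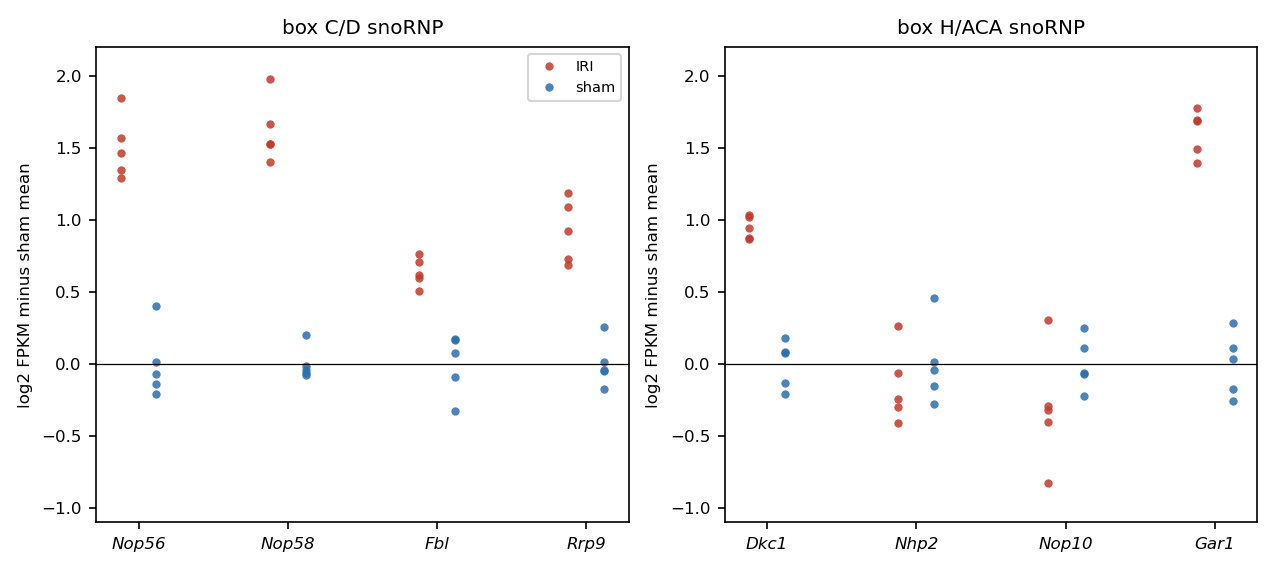
Log2 FPKM of the box C/D genes (left) and the box H/ACA genes (right) in each IRI library (red) and sham library (blue), with each gene's sham mean set to 0. Gar1, Dkc1 and the 4 box C/D genes lie above their sham values in every IRI library, while Nhp2 and Nop10 overlap with sham and mostly lie at or below it.

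Nop10 and Nhp2 have the shortest exonic lengths of the members, 1109 and 1146 bases, and Gar1 has 1714. Tested genes of over 1000 to 2000 bases had a median log2 fold change of -0.15, with 29.2% called higher, against 0.10 and 38.9% for those of over 4000 to 8000 bases. Genes of up to 1000 bases had -0.01 and 20.2%, and those of over 2000 to 4000 bases -0.02 and 34.0%. Genes of over 8000 bases, Utp20 among them, had 0.14 and 39.4%. The 5 members of over 1000 to 2000 bases had a median of 0.38, with 3 called higher. The part of transcript length in the falls of Nop10 and Nhp2 was not tested. The promoters of Gar1 and Nop10 are shown because these partners of a shared complex moved in opposite directions. In the build GRCm38.p6 they lie at chr3:129831347-129831646, minus strand, and at chr2:112261676-112261975, plus strand. Capitals mark the same motifs as above. Gar1 holds an ETS motif that begins 43 bases before the start site, and the window of Nop10 holds neither motif. The other partners show the reverse. Nhp2, which fell, holds an ETS motif 23 bases before the start site, and Dkc1, which rose, holds neither motif.
Gar1: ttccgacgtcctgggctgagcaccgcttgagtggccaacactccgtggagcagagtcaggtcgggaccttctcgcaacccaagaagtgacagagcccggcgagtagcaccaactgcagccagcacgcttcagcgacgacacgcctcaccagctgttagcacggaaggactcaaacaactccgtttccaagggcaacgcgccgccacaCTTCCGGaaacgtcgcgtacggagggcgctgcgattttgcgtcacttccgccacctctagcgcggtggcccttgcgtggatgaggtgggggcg
Nop10: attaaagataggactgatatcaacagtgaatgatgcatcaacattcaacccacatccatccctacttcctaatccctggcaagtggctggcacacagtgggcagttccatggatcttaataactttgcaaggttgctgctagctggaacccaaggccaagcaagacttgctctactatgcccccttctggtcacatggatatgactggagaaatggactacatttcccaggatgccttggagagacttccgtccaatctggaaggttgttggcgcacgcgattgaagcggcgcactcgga

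The 40S subunit is built on the small subunit processome, which forms on the nascent precursor. Its first module, UTP-A, was represented by Heatr1, Utp4, Utp15, Wdr43 and Wdr75. All 5 rose with no overlap between groups in FPKM, where 36.7% of all tested genes had every IRI value above every sham value. The log2 fold changes of the 5 lay close together, from 0.56 to 0.79 (median 0.77). With Utp4 close behind (0.79 ± 0.13), Heatr1, a large scaffold, had the largest change. It measured 6.94, 5.63, 4.41, 4.9 and 5.57 FPKM in IRI replicates 1 to 5, against 2.46, 2.89, 3.21, 2.04 and 2.76 FPKM in sham replicates 1 to 5, a log2 fold change of 0.79 ± 0.16, adjusted p = 0.000762. Wdr75 had the smallest. It measured 8.05, 7.89, 7.1, 5.73 and 6.53 FPKM in IRI replicates 1 to 5, against 4.08, 4.37, 4.78, 3.22 and 3.81 FPKM in sham replicates 1 to 5, a log2 fold change of 0.56 ± 0.14, adjusted p = 0.00362. Utp4 measured 11.4 to 17.1 FPKM in IRI and 6.36 to 6.76 FPKM in sham, Utp15 4.28 to 5.72 FPKM in IRI and 1.87 to 2.97 FPKM in sham and Wdr43 12.3 to 14.1 FPKM in IRI and 6.71 to 7.11 FPKM in sham. Wdr43 averaged 13.1 ± 0.646 FPKM in IRI and 6.87 ± 0.151 FPKM in sham (SD, n = 5 each).

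Other 40S factors gave 8 higher, 1 lower and 1 not called of 10, with a median of 0.72. Rrp12, which acts in the export of pre-ribosomal particles, had the largest change of all 45 members. It measured 8.7, 8.89, 7.15, 7.27 and 7.65 FPKM in IRI replicates 1 to 5, against 2.09, 2.3, 3.31, 2.51 and 2.11 FPKM in sham replicates 1 to 5, or a 2.71-fold rise (log2 fold change 1.44 ± 0.14, adjusted p = 3.89e-06). Noc4l, which pairs with Nop14 in the processome, was second among these 10 genes at 1.01 ± 0.14, with 10.7 to 14.1 FPKM in IRI and 4.48 to 5.81 FPKM in sham. The cytoplasmic maturation factors Tsr1, Ltv1 and Nob1, the last the endonuclease that makes the 3′ end of 18S rRNA, rose by 0.78, 0.74 and 0.40 on the log2 scale. The processome proteins Nol6 (0.74 ± 0.12) and Nop14 (0.69 ± 0.13) and the later-acting bystin, Bysl (0.63 ± 0.09), also rose. Tsr1 overlaps Srr on the opposite strand by 2984 bases, and Srr averaged 465 counts in IRI and 1696 in sham. Overlaps of over 100 bases with a counted gene on the other strand also touch Rrp9, Heatr1, Wdr12, Bysl, Rrp1b and Mybbp1a. Whether the counting used strand is not stated, so the values of these 7 members are uncertain to that extent. Bms1, a GTPase of the processome, measured 15.5, 12.5, 9.26, 10.9 and 12.2 FPKM in IRI replicates 1 to 5, against 8.11, 9.29, 8.42, 8.13 and 9.16 FPKM in sham replicates 1 to 5. IRI replicate 3 lay within the sham range, and the log2 fold change was 0.24 ± 0.14, adjusted p = 0.152. It was called higher with library totals (0.48) and without IRI replicate 3 (0.33). Without IRI replicate 1, its highest library, the log2 fold change was 0.09 and was not called.

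Utp20, a very large scaffold of the 90S particle, was the only 40S member called lower with TMM factors. It measured 4.85, 4.31, 4.51, 3.57 and 4.29 FPKM in IRI replicates 1 to 5, against 4.84, 5.34, 6.58, 3.91 and 4.92 FPKM in sham replicates 1 to 5. The groups overlapped, and the log2 fold change was -0.49 ± 0.14, adjusted p = 0.00738, or -0.25 with library totals (adjusted p = 0.105), where it was not called. Its promoter window (chr10:88826765-88827064, minus strand) is shown because it holds an E-box, in capitals, that begins 37 bases after the start site, as do windows of members that rose.
Utp20: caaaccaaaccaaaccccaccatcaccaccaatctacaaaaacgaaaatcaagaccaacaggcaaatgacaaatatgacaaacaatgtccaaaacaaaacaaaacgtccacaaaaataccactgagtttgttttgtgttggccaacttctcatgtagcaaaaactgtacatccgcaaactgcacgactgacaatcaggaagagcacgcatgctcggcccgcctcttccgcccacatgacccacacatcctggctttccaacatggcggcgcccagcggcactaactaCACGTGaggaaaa

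The 60S factors gave 8 higher, 0 lower and 4 not called of 12, with a median of 0.44. In FPKM, 11 of the 12 (91.7%) had every IRI value above every sham value, against 36.7% of all tested genes. Bop1, Rrs1 and Noc3l were among the 11 but were not called with TMM factors. By edgeR 0 of the 12 were lower at an unadjusted p under 0.05, and DESeq2 called 0 lower. Rrp1b, a nucleolar partner of the PP1 phosphatase, had the largest change of these. It measured 3.67, 3.44, 2.88, 2.92 and 3.13 FPKM in IRI replicates 1 to 5, against 1.47, 1.49, 1.27, 1.32 and 1.31 FPKM in sham replicates 1 to 5, a log2 fold change of 0.98 ± 0.12, adjusted p = 2.38e-05. Nip7 measured 10.4 to 15.5 FPKM in IRI and 4.65 to 6.15 FPKM in sham (0.84 ± 0.13) and Ftsj3, an rRNA methyltransferase, 15.5 to 22.9 FPKM in IRI and 9.04 to 9.79 FPKM in sham (0.69 ± 0.13). Nop2, which methylates 28S rRNA, measured 13.2 to 19.7 FPKM in IRI and 8.02 to 9.45 FPKM in sham (0.54 ± 0.14). Wdr74 (0.63 ± 0.09), Noc2l (0.39 ± 0.08) and Nop16 (0.38 ± 0.12) also rose.

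Pes1, Bop1 and Wdr12 form the PeBoW complex, which is needed for 60S maturation. Pes1 rose, with 25.3, 27.3, 30.1, 26.03 and 29.1 FPKM in IRI replicates 1 to 5, against 17.4, 15.6, 17.1, 17.5 and 14.3 FPKM in sham replicates 1 to 5, a log2 fold change of 0.50 ± 0.08, adjusted p = 0.000186. Bop1 measured 11.9 to 15.1 FPKM in IRI and 7.7 to 10.99 FPKM in sham, with a log2 fold change of 0.20 ± 0.11, adjusted p = 0.136. Wdr12 had the smallest change of all members. It measured 1.85, 2.14, 2.18, 1.78 and 2.18 FPKM in IRI replicates 1 to 5, against 1.81, 1.81, 1.48, 1.74 and 1.57 FPKM in sham replicates 1 to 5, with overlapping groups and a log2 fold change of 0.01 ± 0.10, adjusted p = 0.915, whose sign turned with DESeq2 and without IRI replicate 2, IRI replicate 3 or sham replicate 3. Rrs1, which brings the 5S particle to the 60S precursor, was likewise not called (16.6 to 19.98 FPKM in IRI and 12.8 to 14.9 FPKM in sham, log2 fold change 0.09 ± 0.10, adjusted p = 0.452). Noc3l was not called either (4.08 to 6.26 FPKM in IRI and 3.05 to 3.95 FPKM in sham, log2 fold change 0.30 ± 0.15, adjusted p = 0.0994). Its log2 fold change was 0.37 without IRI replicate 3, where it was called higher, and 0.17 without IRI replicate 1, its highest library, where it was not called. With library totals all 4 uncalled 60S members were called higher, at 0.27 for Wdr12, 0.34 for Rrs1, 0.45 for Bop1 and 0.55 for Noc3l.

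**Figure D3:**
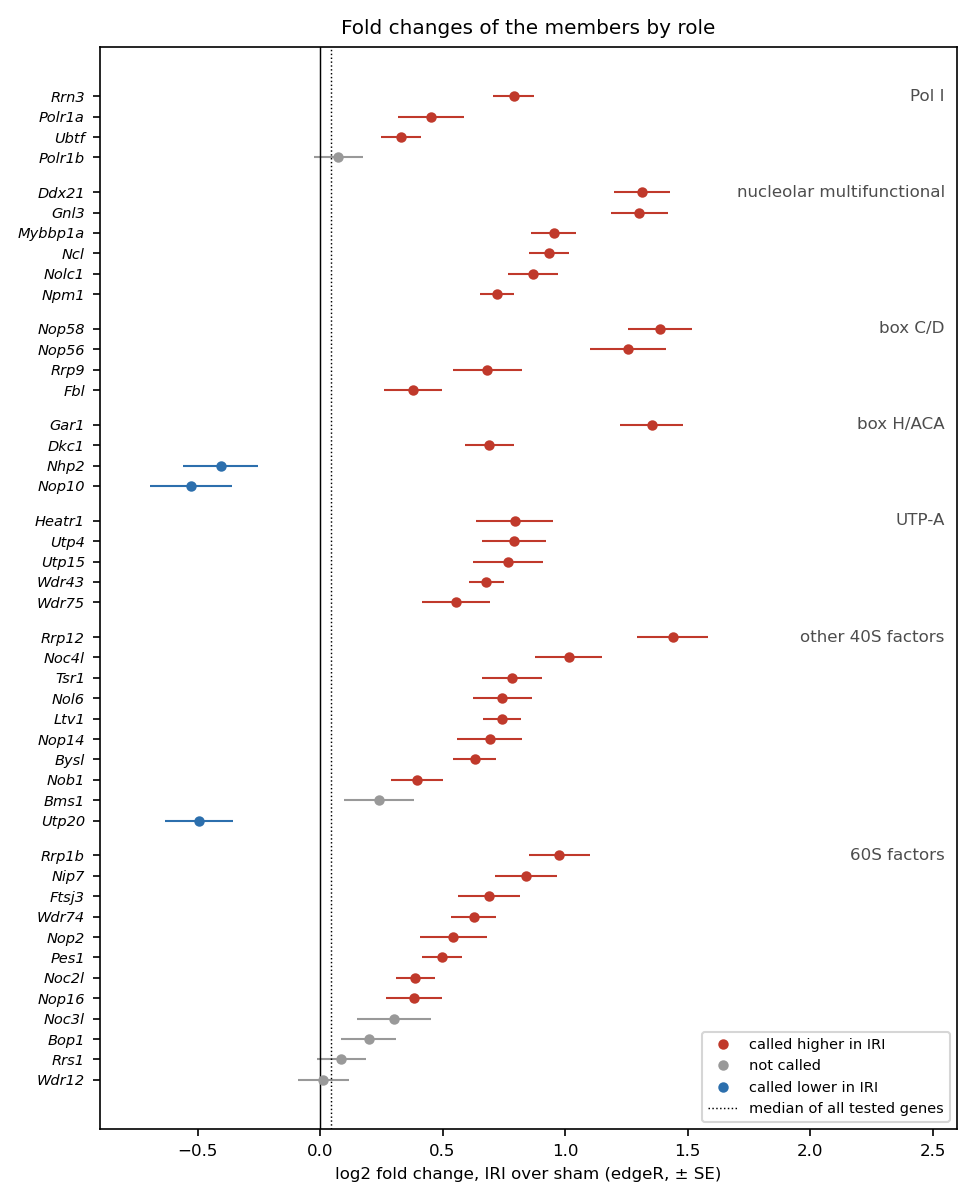
Log2 fold change of each member, IRI over sham, with its standard error from edgeR, grouped by role (red, called higher; grey, not called; blue, called lower). The dotted line is the median of all tested genes at 0.05, and the 3 genes called lower are Nhp2, Nop10 and Utp20.

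Several members carry snoRNA genes within their bounds. In the deposited coordinates (GRCm39) 6 members held 11 named snoRNA genes on the same strand: Nop56, Nop58, Gnl3, Ncl, Wdr43 and Tsr1. All 6 of these members rose, beside 34.5% of all tested genes called higher. Their log2 fold changes were 0.68 to 1.39 (median 1.10). Of the other 39 members 30 rose as well, with a median of 0.63 over the 39. This split was noticed in the data and is a description. It rests on genes with a snoRNA symbol only. Short same-strand genes with other symbols were left out, such as Gm25520 (118 bases) within Dkc1, which stands among the 39. The snoRNAs themselves, which lack a poly(A) tail, had mean counts of 0 to 18.2 per group and were not compared.

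The rest of the pathway was described from lists drawn up beside the members. Of 116 other ribosome biogenesis protein genes tested, 74 were higher (63.8%), 9 lower (7.76%) and 33 not called. Their log2 fold changes had a median of 0.42. Over all tested genes 34.5% were called higher and 32.4% lower, the background for each list below. Other 60S assembly factors gave 30 higher and 0 lower of 42 by edgeR (median 0.60), with 2 lower at an unadjusted p under 0.05 and 2 called lower by DESeq2. Among them, Eif6, which keeps the 60S subunit from joining the 40S too early, rose by 1.92 ± 0.10 on the log2 scale (90.04 ± 14.1 FPKM in IRI and 19.9 ± 0.591 FPKM in sham). Las1l (1.46 ± 0.16) and Ppan (1.39 ± 0.12) followed. Other 40S assembly factors gave 24 higher and 4 lower of 38 (median 0.41), with Utp14a (1.06 ± 0.08), Riok1 (1.04 ± 0.13) and Dimt1 (0.89 ± 0.23) at the top and Nol7 (-0.35 ± 0.08), Utp11 (-0.35 ± 0.09) and Utp6 (-0.32 ± 0.09) at the bottom.

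Among 12 other Pol I subunits and factors 7 rose and 0 fell by edgeR (median 0.26), with 0 lower at an unadjusted p under 0.05 and 0 by DESeq2. Taf1d, a subunit of the Pol I selectivity factor, had the largest rise (1.43 ± 0.12), followed by Polr1g (0.55 ± 0.14) and Taf1a (0.46 ± 0.12). The list drawn up for snoRNP assembly factors had 5 higher and 1 lower of 10 tested (median 0.19). Zfp593 (0.99 ± 0.34) was highest but is not an established snoRNP assembly factor, although it was counted in this list. Shq1 (0.74 ± 0.22) and Nufip1 (0.50 ± 0.16) came next, and Pih1d1 (-0.36 ± 0.10) was lower. RNA exosome and trimming genes had 8 higher (57.1%) and 4 lower (28.6%) of 14 (median 0.33). The lower share was near the 32.4% of all tested genes, and the higher share stood beside 34.5%. Mphosph6 (0.97 ± 0.12), Dis3 (0.86 ± 0.12) and Exosc1 (0.85 ± 0.13) rose, while the helicase Mtrex (-0.91 ± 0.11), C1d (-0.74 ± 0.12) and Exosc5 (-0.67 ± 0.12) fell.

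Pol III, which makes 5S rRNA and tRNAs, was set beside Pol I. A list of 12 genes, its specific subunits and the repressor Maf1, gave 2 higher, 3 lower and 7 not called (median 0.06). These were 16.7% higher and 25% lower, beside 34.5% and 32.4% of all tested genes. Polr3d (0.92 ± 0.10) and Polr3b (0.41 ± 0.13) rose, and Polr3e (-1.51 ± 0.12), Polr3gl (-0.85 ± 0.16) and Maf1 (-0.25 ± 0.09) fell. Host genes of snoRNAs that are not themselves coding gave 9 higher, 0 lower and 1 not called of 10 tested by edgeR (median 1.21), with 0 lower at an unadjusted p under 0.05 or by DESeq2, and with Snhg5 (2.12 ± 0.21), Snhg1 (1.77 ± 0.13) and Snhg6 (1.41 ± 0.16) highest. A further 2 of that list were below the filter and 2 had no match.

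Myc measured 26.02, 27.6, 18.9, 18.8 and 17.2 FPKM in IRI replicates 1 to 5, against 1.14, 1.46, 2.27, 2.23 and 1.69 FPKM in sham replicates 1 to 5. Its groups did not overlap and it rose 10.47-fold (log2 fold change 3.39 ± 0.22, adjusted p = 2.14e-07). Of 9 tested genes of the Myc network, 5 were higher (55.6%) and 2 lower (22.2%), beside 34.5% and 32.4% of all tested genes. Mycn (0.87 ± 0.26) and the Myc antagonist Mxd4 (0.75 ± 0.12) rose, while the antagonist Mxi1 (-0.93 ± 0.10) and the MAX-like partner Mlx (-0.74 ± 0.08) fell. Mycl and Mxd3 were below the filter. Whether the Myc level bears on the members was not tested.

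**Figure D4:**
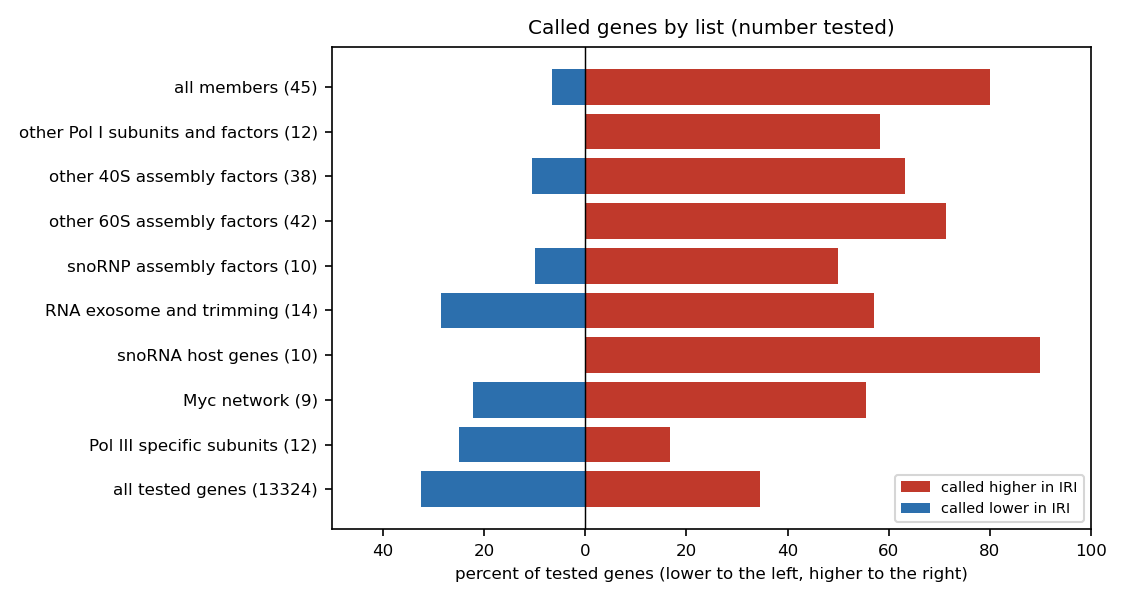
Percent of tested genes called higher (red, right of 0) and lower (blue, left of 0) in IRI, by list, with the number tested in brackets. Members stand at 80.0% higher and 6.67% lower, and all 13324 tested genes at 34.5% and 32.4%.

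Cell type markers also differed between the same libraries, in both directions. All 6 proximal tubule markers fell, and their summed FPKM was 219 to 923 in IRI and 1864 to 2351 in sham. Of 11 markers of cycling cells, 4 passed the filter and rose, and with no filter 7 of 11 were called higher. Their summed FPKM was 48.9 to 56.4 in IRI and 17.4 to 21.3 in sham, with Mki67 at 0.914 ± 0.464 FPKM in IRI and 0.48 ± 0.1005 FPKM in sham. The 7 neutrophil markers summed to 20.2 to 103 FPKM in IRI and 0.940 to 3.34 in sham, with Ly6g listed at 0 in all sham libraries, and 7 of 7 were called higher with no filter. The 7 leukocyte markers, with 4 higher and 1 lower of 6 tested, summed to 22.9 to 46.5 FPKM in IRI and 17.6 to 27.2 in sham. The 7 macrophage markers, with 1 higher and 1 lower of 4 tested, summed to 38.4 to 81.2 FPKM in IRI and 32.3 to 48.4 in sham. The 8 lymphocyte markers summed to 0.430 to 0.790 FPKM in IRI and 2.00 to 3.90 in sham, with Ms4a1 listed at 0 in all IRI libraries. With no filter, 7 of 8 lymphocyte markers were called lower. On the same footing the leukocyte list had 4 higher and 2 lower of 7. The macrophage list had 1 higher and 2 lower of 7, with a median log2 fold change of -0.29. Endothelial markers had 4 of 5 higher (67.3 to 99.4 FPKM in IRI and 38.2 to 55.9 in sham), podocyte markers 3 of 4 (127 to 154 and 50.1 to 83.9) and fibroblast and pericyte markers 2 of 5 (63.0 to 198 and 35.0 to 45.8). Markers of the loop of Henle and distal nephron had 1 higher and 4 lower of 6 (1609 to 3119 FPKM in IRI and 921 to 1951 in sham). Their part in the rise of the members was not tested.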

How the data were processed

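The authors deposited a table of whole-number counts per gene and of FPKM per gene for 10 kidney libraries, with exonic lengths and coordinates. FPKM equalled count over exonic length and library total for 100% of values, within 0.006 units or 0.1%. The exonic length is the union of exons, so levels of different genes depend on it. Per the submitters' processing notes, the tools were cutadapt 1.9.1, HISAT2 2.0.1 and HTSeq 0.6.1 and the build was GRCm39. Their settings, the use of strand among them, are not stated in the sources used. On opposite strands 12 members overlap a gene with over 100 mean counts in a group.

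Ensembl identifiers of the table were paired with symbols through a gene name table, and listed genes were matched by symbol or, for 4 of them, by an older symbol. Genes with at least 1 FPKM in 5 libraries (13324) were tested on counts with edgeR 4.0.16 under R 4.3.3 (quasi-likelihood test, TMM factors, Benjamini-Hochberg adjustment over all tested genes) and called at an adjusted p under 0.05. The SE is the log2 fold change over the square root of F. Differences inside each group exceeded counting noise, with chi-square values of 14.1 to 106 per degree of freedom in IRI and 8.76 to 39.0 in sham. Alternatives were DESeq2 1.42.0, limma 3.58.1 on log2(FPKM + 1) or log2(FPKM + 0.1), other scalings, filters and thresholds, a replicate block, and leaving out each library.

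Members and lists were chosen with earlier results of these data known. By the rule for named genes, the text gives library values for members of largest and smallest change in each role group and for those called lower, and for other pathway lists the 3 largest called changes each way. Promoters are from RefSeq (GRCm38.p6), and their coordinates are not mixed with those of the table.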

Additional observations from a re-analysis of the deposited data

Results flagged for a closer look

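In 10 of 90 sets of 5 values (45 members in 2 groups), the FPKM of 1 library lay far from the others by Dixon's test at its 95% critical value of 0.71, which chance passes in about 1 of 20 sets. Sham replicate 3 lay apart 4 times, IRI replicate 2 did so 3 times, sham replicate 2 did so 2 times and IRI replicate 1 once. Among IRI libraries, Polr1a was lowest in replicate 2 (2.31 FPKM against 3.10 to 3.33 in the others), Nob1 was highest there (12.4 against 9.05 to 9.88), and so was Wdr74 (27.0 against 20.8 to 22.5). Npm1 was lowest in IRI replicate 1 (92.5 FPKM against 103 to 107). In sham replicate 3, Polr1a (2.43 FPKM against 1.53 to 1.79), Mybbp1a (12.2 against 9.61 to 10.3) and Nop58 (2.84 against 2.35 to 2.45) were highest and Rrs1 (12.8 against 14.3 to 14.9) was lowest. In sham replicate 2, Ubtf (14.8 FPKM against 16.4 to 17.0) and Nip7 (4.65 against 5.85 to 6.15) were lowest.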

How the results depend on the processing

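Of the 36 members called higher, 33 kept the call in all 19 alternatives, and Polr1a, Fbl and Nop16 lost it only at an adjusted p under 0.01. Members called lower numbered 0 with library totals and with limma at either pseudocount, and 1 at an adjusted p under 0.01. Other pathway genes called lower numbered 7 with library totals and with limma at either pseudocount, against 14. With library totals, limma on log2(FPKM + 1) and limma on log2(FPKM + 0.1), the median log2 fold change of all tested genes was 0.30, 0.24 and 0.29, and that of the members was 0.93, 0.82 and 0.92. The sign of Wdr12 turned with DESeq2 size factors (-0.0095) and the DESeq2 test (-0.0093), and leaving out single libraries gave -0.025 to 0.070. Leaving out each library gave 36 to 38 members higher and 2 to 3 lower, with a median of 0.63 to 0.73, and 84 to 92 other pathway genes higher and 11 to 16 lower. Same-numbered libraries did not pair (correlations of deviations -0.25 to 0.06, and 0 of 5 IRI libraries correlated best with their own number). With the replicate block, 36 members were higher and 2 lower (median 0.68), and Nhp2 alone of the members lost its call (-0.40, adjusted p = 0.0753). The 12 ratios were also recomputed without each library, an alternative chosen after seeing the data. Of these, Nop56 over Fbl (0.79 to 1.05) and Fbl over Rrp9 (-0.43 to -0.22) changed sides of the threshold.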
